A study of Mus musculus with 48 samples.

Results

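The expression of 9 genes of the mouse carboxylesterase family, Ces1d, Ces1e, Ces1f, Ces1g, Ces2a, Ces2b, Ces2c, Ces2e and Ces2g, was followed in the colon over the circadian day. They were picked by symbol from the table of read counts, which lists 55401 genes, and are 9 of its 20 genes with a Ces symbol. The list was drawn up with the genotype differences of these data known, so differences between genotypes are given for these genes as a description and without a p-value. The tests reported for them concern time of day and the dependence of time of day on genotype. All 9 passed the filter on low counts.

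Carboxylesterases are enzymes of the endoplasmic reticulum that cut ester, thioester and amide bonds. They hydrolyse lipid esters such as triglycerides and activate or clear many drugs and environmental esters, and in the gut they are found mainly in the epithelium. Many metabolic genes follow the circadian clock, in which the transcription factor BMAL1 drives its targets through E-boxes and, through DBP, TEF, HLF and NFIL3, acts on genes with D-boxes.

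The mice were males on a C57BL/6J background, 18 to 20 weeks old, fed chow without restriction and kept in 12 h of light and 12 h of darkness until they were released into constant darkness. Colon tissue was taken on day 2 of darkness at 6 circadian times, CT1, CT5, CT9, CT13, CT17 and CT21, from 4 mice per genotype and time. In Bmal1IEC-/- mice both alleles of Bmal1 were floxed and a Cre recombinase under the Villin promoter deleted the gene in intestinal epithelial cells, whereas the control littermates carried the same floxed alleles without Cre. Muscle, connective tissue, immune cells and fat of the colon keep Bmal1 in this model and contribute to the RNA. No group carried Cre without the floxed alleles. Bmal1IEC-/- mice SV384 and SV385 at CT1 were left out of the tests and are described separately, so 24 control and 22 Bmal1IEC-/- mice were tested, with 2 Bmal1IEC-/- mice at CT1.

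Total counts ran from 3144997 to 4785844 per mouse, and the gene with most counts took at most 4.80% of a mouse's counts. Nr1d1, a direct target of BMAL1 that encodes a repressor of the clock, was lower in Bmal1IEC-/- mice at all 6 times, with means of 165 against 557 normalized counts at CT9. For Bmal1 (Arntl) itself the group means ran from 26.4 at CT9 to 260.0 at CT1 in control mice and from 114 to 177 in Bmal1IEC-/- mice. The Bmal1IEC-/- mean was thus above the control mean at CT9, CT13 and CT17, and reads of the deleted part of the gene were not counted apart from the rest.

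The 9 genes lie in 2 clusters on chromosome 8 (GRCm38). The 4 Ces1 genes span chr8:93166068-93337308 on the minus strand and the 5 Ces2 genes span chr8:104734003-104969537 on the plus strand, 11397 kb apart. Ces1d is at chr8:93166068-93197838 and Ces1g at chr8:93302369-93337308. No exon of the 9 genes overlaps an exon of another gene in GENCODE vM21. Sequence shared with other genes was most extensive for Ces2c and Ces2a. Of all stretches of 50 bases in the longest transcript, 42.2% of Ces2c and 22.2% of Ces2a also occur in another gene, for Ces2c in Ces2b, Gm8798, Ces2d-ps and Gm6831, which reached 165, 32, 8 and 4 counts in a mouse, among others. For Ces2a the partners included Ces2e, Ces2b, Ces2f and Gm7208, which reached 1898, 165, 8 and 3 counts. For Ces1d and Ces1g these shares were 1.28% and 1.67%. Reads from shared stretches may have been dropped or placed on another copy, so the levels of Ces2c and Ces2a are less certain.

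Promoter sequence from RefSeq (GRCm38.p6) was at hand for 6 of the 9 genes, and Ces1d, Ces1f and Ces2b had no entry. The 250 bases before the RefSeq start were searched on both strands for a D-box, written as TTATGTAA or TTACGTAA, for the E-box CACGTG and for the half-site AGGTCA bound by REV-ERB receptors. None of the 6 promoters searched held more than 1 of these motifs, so no matches overlapped in them. A D-box was present before Ces1e and before Ces1g, and in 0.929% of all 32817 promoters of the same length. It began 81 bases before the RefSeq start of Ces1e and 232 bases before that of Ces1g. The RefSeq start of Ces1g, at chr8:93337209, lies inside the GENCODE gene, so only 151 of its 250 bases are printed. Both sequences are shown because they hold the motif, which is in capitals, and because Ces1g is one of the genes with a changed rhythm. They read 5′ to 3′ on the minus strand and stop where the GENCODE gene begins, chr8:93229620-93229869 for Ces1e and chr8:93337309-93337459 for Ces1g.
Ces1e: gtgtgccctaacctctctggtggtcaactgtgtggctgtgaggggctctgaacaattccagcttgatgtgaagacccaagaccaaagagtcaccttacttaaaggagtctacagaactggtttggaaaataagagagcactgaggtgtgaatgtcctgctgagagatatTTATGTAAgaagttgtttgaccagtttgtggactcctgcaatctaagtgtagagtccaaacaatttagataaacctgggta
Ces1g: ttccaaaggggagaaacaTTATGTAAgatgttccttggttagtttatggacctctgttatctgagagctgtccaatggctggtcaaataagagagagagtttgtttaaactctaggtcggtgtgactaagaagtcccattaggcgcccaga
The E-box was in none of the 6 promoters and in 6.02% of all promoters, and AGGTCA was before Ces2a only and in 14.0% of all promoters. Of the 9 other Ces genes with an entry, Ces1a, Ces1b and Ces1c also held the D-box. A match of letters describes the sequence and does not show that a factor binds there.

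Levels were compared between genes as RPKM, counts scaled to the length of the gene's exons and to the mouse's total. Ces2c, which hydrolyses diglycerides and ester drugs, stood highest in each of the 46 mice, with a median of 267 and a range of 177 to 326. Ces2e (median 116), Ces1g (112), Ces2a (93.6), Ces1f (86.1) and Ces1d (75.5) formed a middle group whose ranges over mice overlapped, and neighbours in this order changed places between mice (Ces2e was above Ces1g in 27 of 46). Ces1e (15.7), Ces2b (6.11) and Ces2g (2.01) followed in this order in every mouse. Ces1d moved within the middle group with the genotype. Its median was 132 in control mice, level with Ces1g at 132, and 51.8 in Bmal1IEC-/- mice, where 20 of 22 mice had less Ces1d than Ces1g. Per length of the longest transcript instead of all exons, Ces1f moved up to a median of 147, and the first and the last 3 places did not change.

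**Figure D1:**
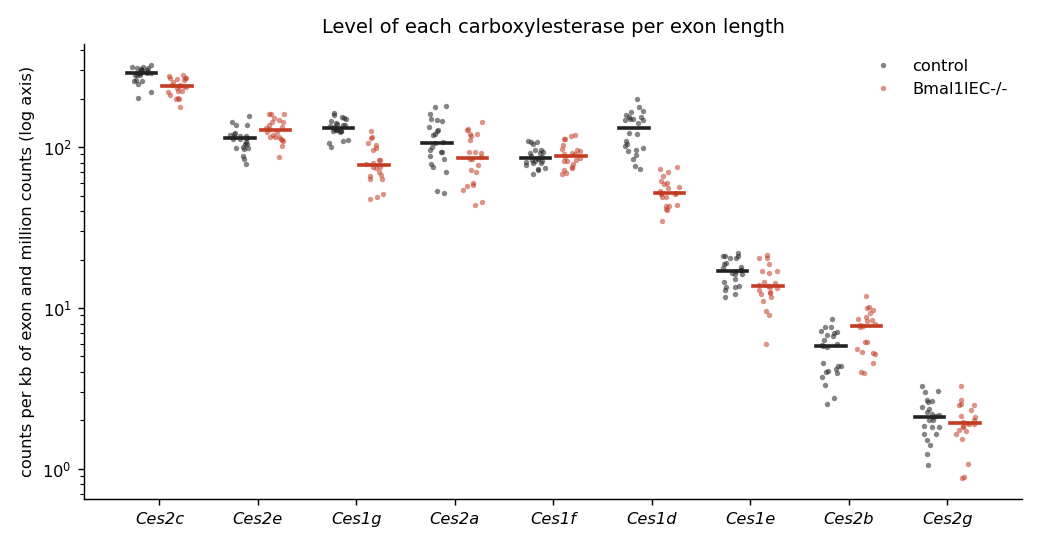
Level of each carboxylesterase in RPKM, on a log axis, in 24 control mice (black) and 22 Bmal1IEC-/- mice (red), 1 point per mouse with a bar at the median. Ces2c is highest in both genotypes (median 267 over all mice), Ces1d is at 132 in control and 51.8 in Bmal1IEC-/- mice, and Ces2g is lowest at 2.01.

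Ces1d encodes a triglyceride hydrolase of the endoplasmic reticulum. In control mice its normalized count, the count divided by the mouse's size factor, was 918, 1004, 1097 and 1279 at CT1, and it was 661, 763, 811 and 933 at CT5. At CT9 it was 699, 857, 858 and 886. The control values then stood higher at all 3 night times, with no overlap between the mice of CT9 and those of CT13. They were 1359, 1428, 1498 and 1559 at CT13, 1386, 1551, 1611 and 1815 at CT17, and 1094, 1339, 1343 and 1411 at CT21. The lowest of the 12 night values, 1094, was exceeded by only 2 of the 12 day values, both at CT1.

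In Bmal1IEC-/- mice the Ces1d count was 379 and 403 at CT1 and 567, 602, 646 and 682 at CT5. It was 369, 398, 462 and 672 at CT9 and 396, 449, 528 and 539 at CT13. The means at CT9 and CT13 were 475 and 478, and the values of these times overlapped. The counts were 311, 444, 475 and 521 at CT17 and 471, 477, 487 and 506 at CT21. The Bmal1IEC-/- mean was lower than the control mean at all 6 times, the values of the genotypes overlapped only at CT5, and 20 of the 22 Bmal1IEC-/- mice were below the lowest control mouse. The ratio of the means was 0.788 at CT5, its highest, and 0.275 at CT17, its lowest. Over all times the fitted difference was -1.24 ± 0.10 (SE, log2), that is 2.36-fold lower. Since colon tissue with its different cells was sequenced, fewer cells that express a gene and less RNA per cell cannot be told apart.

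**Figure D2:**
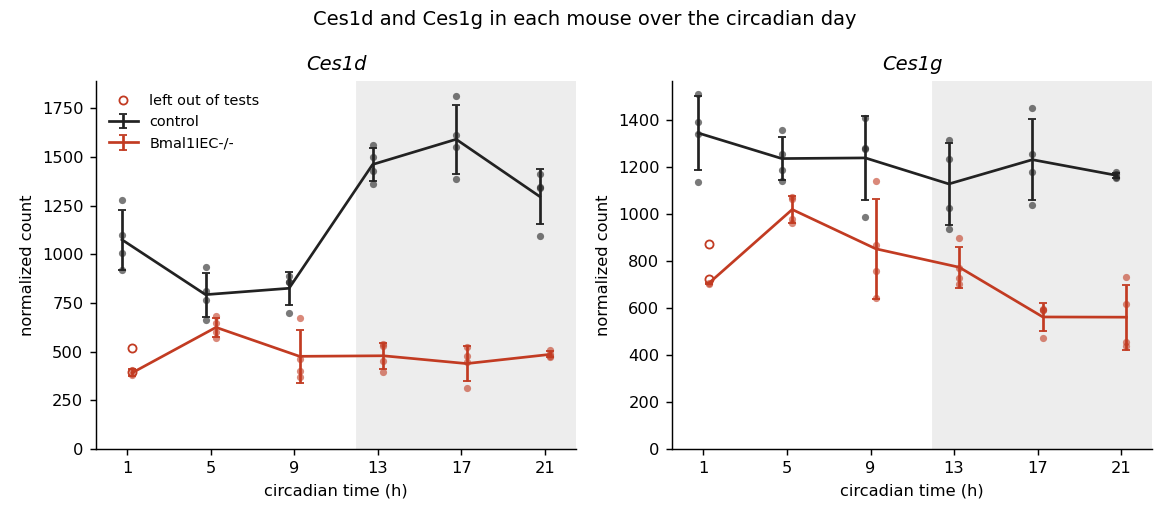
Normalized counts of Ces1d and Ces1g against circadian time (h) in control (black) and Bmal1IEC-/- mice (red). Points are mice, lines join group means with SD, open circles are the 2 mice left out of the tests, and grey marks the night. Control Ces1d runs from 792 at CT5 to 1591 at CT17 on average, while Bmal1IEC-/- Ces1d stays between 391 and 624. Ces1g is near 1222 in control mice all day and runs from 1018 at CT5 to 561 at CT17 in Bmal1IEC-/- mice.

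Ces1d was rhythmic in control mice by JTK_cycle, a rank test for a 24-h wave, with an adjusted p of 3.03e-06 and a phase of 18 h, and not in Bmal1IEC-/- mice (adjusted p = 0.868). A cosine fitted to the log2 counts had an amplitude of 0.52 ± 0.06 (SE, n = 24), a peak-to-trough ratio of 2.07 and a peak at 17.4 ± 0.42 h in control mice. The Bmal1IEC-/- amplitude was 0.15 ± 0.08 (n = 22). The change of rhythm between genotypes was tested directly in edgeR and passed, with an adjusted p of 1.62e-05, against 0.961% of all 14360 genes tested. Ces1d was also higher at night than by day in control mice, by 0.69 ± 0.10 (SE, log2; adjusted p = 3.64e-07), and differed by -0.15 ± 0.11 in Bmal1IEC-/- mice (adjusted p = 0.348). The difference between these 2 night effects was -0.84 (95% interval -1.13 to -0.56, adjusted p = 0.00165 in edgeR), a test that only 10 of 14000 genes (0.0714%) and no other carboxylesterase passed. Without any single mouse, Ces1d kept its control rhythm, its changed rhythm and this interaction.

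Ces1g encodes a lipid hydrolase of liver and intestine. It had no rhythm in control mice (JTK_cycle adjusted p = 1). The control values were 1134, 1339, 1389.5 and 1509.6 at CT1 and 1035, 1176, 1256 and 1451 at CT17, and the other 4 control groups lay between 935 and 1408. In Bmal1IEC-/- mice the counts were 702 and 705 at CT1, 959.5, 979, 1063 and 1069.5 at CT5, and 642, 757, 866 and 1138 at CT9. They were 699, 726, 768 and 895 at CT13, 469, 590.2, 591 and 593 at CT17, and 438, 454, 618 and 729 at CT21. Thus the Bmal1IEC-/- mice came closest to control mice at CT5, where the groups still did not overlap, and overlapped them only at CT9. The ratio of the means was 0.825 at CT5 and 0.456 at CT17, and the fitted difference over all times was -0.73 ± 0.07 (SE, log2), or 1.66-fold lower.

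Ces1g was rhythmic in Bmal1IEC-/- mice, with a JTK_cycle adjusted p of 0.000206 and a phase of 6 h. The cosine amplitude was 0.42 ± 0.07 (SE, n = 22) with a peak at 6.92 ± 0.70 h, beside 0.08 ± 0.05 (n = 24) in control mice. The change of rhythm passed in edgeR (adjusted p = 0.00978). With the 6 times as separate levels in place of a cosine, the adjusted p was 0.0521. Ces1g fell at night in Bmal1IEC-/- mice, by 0.50 on the log2 scale (SE 0.10, adjusted p = 0.000655), and differed by -0.12 ± 0.09 in control mice (adjusted p = 0.324). The difference of these night effects, -0.38 (95% interval -0.65 to -0.11), did not pass (adjusted p = 0.398).

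Of the 9 genes, 2 had an adjusted p under 0.05 and a fold over 1.5 between genotypes, Ces1d and Ces1g, both lower in Bmal1IEC-/- mice. Of all 14475 genes tested, 1.36% passed both thresholds, 0.691% lower and 0.670% higher. Because the genes were listed with this contrast known, nothing is read from their count. The other fitted log2 differences were -0.36 ± 0.13 (SE) for Ces2a, -0.26 ± 0.07 for Ces1e, -0.25 ± 0.04 for Ces2c and -0.13 ± 0.10 for Ces2g. Ces1f was at 0.05 ± 0.05, Ces2e at 0.20 ± 0.06 and Ces2b at 0.46 ± 0.11. Ces2b, which went the other way from Ces1d, had a higher mean in Bmal1IEC-/- mice at all 6 times, and Ces2c a lower one at all 6. The median over the 9 genes was -0.25 and that over all genes 0.0049.

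The remaining Ces1 genes were rhythmic in both genotypes. Ces1f, a neighbour of Ces1d with related lipid hydrolase activity, had a JTK_cycle adjusted p of 0.0123 in control and 1.71e-05 in Bmal1IEC-/- mice, with phases of 22 h and 0 h. Its cosine amplitude was 0.17 ± 0.05 (SE, n = 24) in control and 0.30 ± 0.05 (n = 22) in Bmal1IEC-/- mice. At CT13, its lowest time there, the Bmal1IEC-/- counts were 868, 868, 934 and 945, and at CT21 they were 1053, 1319, 1433 and 1503, with no overlap. Ces1e, which holds beta-glucuronidase in the endoplasmic reticulum, had adjusted p-values of 0.0302 and 0.000385 with a phase of 8 h in both genotypes. Its amplitude was 0.22 ± 0.07 (n = 24) in control and 0.43 ± 0.09 (n = 22) in Bmal1IEC-/- mice. The change of rhythm did not pass for Ces1f (adjusted p = 0.277) or Ces1e (adjusted p = 0.560).

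By JTK_cycle none of the Ces2 genes was rhythmic in control mice and 4 of 5 were rhythmic in Bmal1IEC-/- mice. Of all genes past the filter on low counts, 50.0% and 29.3% were. The JTK_cycle adjusted p in control mice was 1 for Ces2a and Ces2e, 0.391 for Ces2c, 0.123 for Ces2b and 0.0681 for Ces2g. In Bmal1IEC-/- mice it was 0.0318 for Ces2a, which hydrolyses mono- and diglycerides, and 0.000697 for Ces2c. It was 0.0466 for Ces2e, known for hydrolysing pyrethroids in the intestine, 7.53e-05 for Ces2g and 0.0798 for Ces2b. The calls of Ces2a and Ces2e were weak. With 1 mouse left out at a time, Ces2a kept its call in 12 of 22 cases and Ces2e in 8 of 22. Neither remained with a Benjamini-Hochberg correction over all transcripts. In an edgeR F test of a 24-h cosine within each genotype, Ces2g passed in control mice (adjusted p = 0.0288). Ces2b passed this test in Bmal1IEC-/- mice (adjusted p = 0.0308), so the calls of Ces2b and Ces2g depend on the test. Ces2a illustrates the spread. Its control counts at CT17 were 806, 1349, 1484 and 1633, its Bmal1IEC-/- counts at CT17 were 412, 547, 750.4 and 797, and these groups did not overlap. At CT1, however, the control counts alone ran from 467 to 1638. No Ces2 gene passed the test of a changed rhythm, with adjusted p-values from 0.322 for Ces2a to 0.881 for Ces2b, so a difference in rhythm between genotypes was not shown for them.

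**Figure D3:**
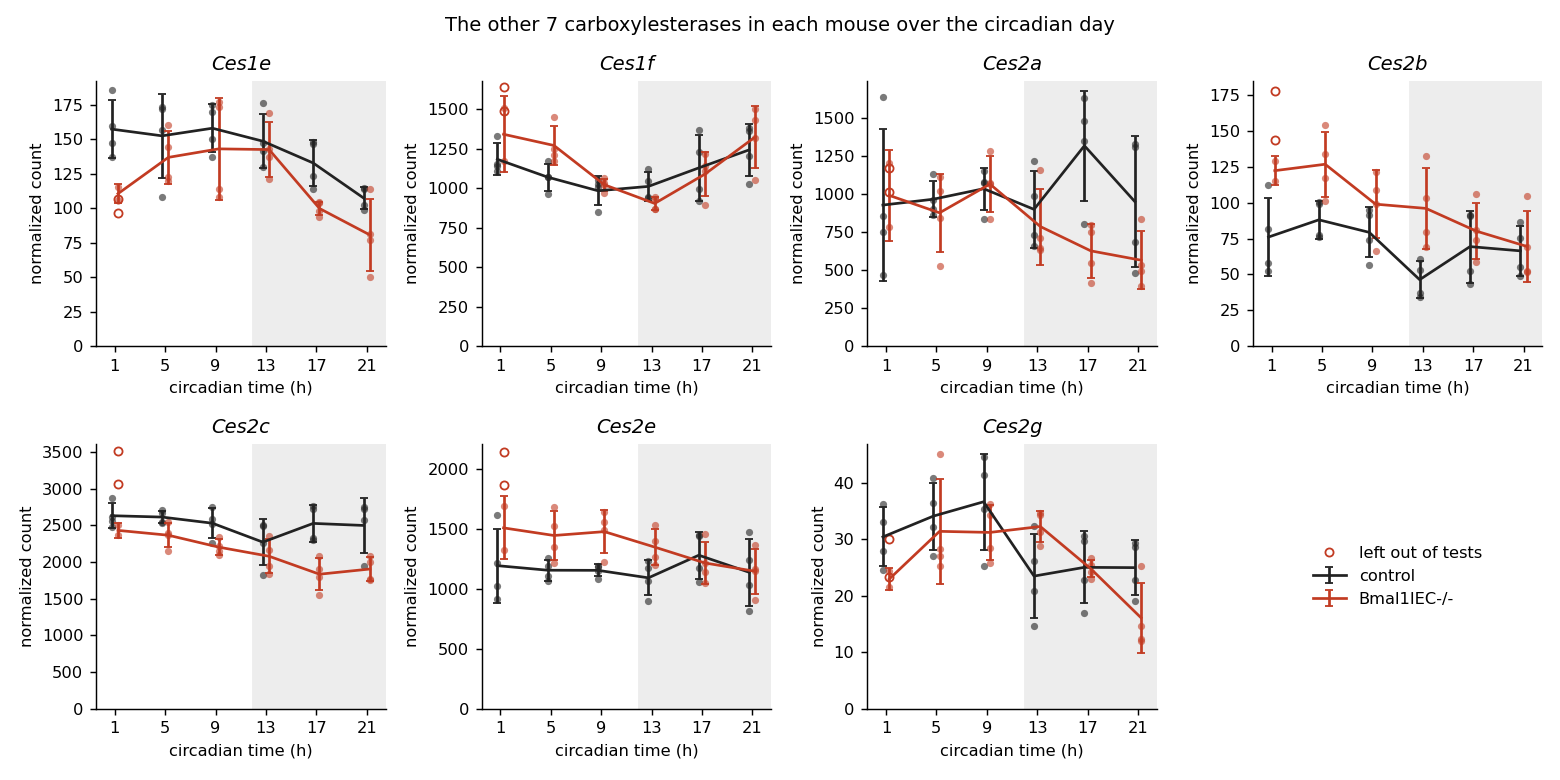
Normalized counts of the other 7 genes against circadian time (h), 1 panel per gene, with mice as points, group means with SD as lines, control in black and Bmal1IEC-/- in red. Open circles are the 2 mice left out of the tests. The genotypes do not overlap at CT17 for Ces2a (means of 1318 and 627), Ces1e and Ces2c, and at some other times for Ces1e, Ces2b, Ces2e and Ces2g. These gaps are a description of small groups. For Ces2c and Ces2e both open circles lie above all other Bmal1IEC-/- mice.

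By JTK_cycle, 3 of the 9 genes were thus rhythmic in control mice (Ces1d, Ces1e and Ces1f) and 7 in Bmal1IEC-/- mice (all but Ces1d and Ces2b). Of all genes past the filter on low counts, 50.0% were rhythmic in control and 29.3% in Bmal1IEC-/- mice. Genes called in Bmal1IEC-/- mice and not in control mice numbered 5 of 9 (Ces1g, Ces2a, Ces2c, Ces2e and Ces2g), where 5.84% of all filtered genes were, and Ces1d was called in control mice only, as were 26.6% of them. Calls in both genotypes were made for 2 of 9 and for 23.4% of filtered genes. These calls in one genotype and not the other are differences for Ces1d and Ces1g only, the genes whose change of rhythm passed. With a Benjamini-Hochberg correction over all transcripts, 1 gene (Ces1d) remained in control and 5 (Ces1e, Ces1f, Ces1g, Ces2c and Ces2g) in Bmal1IEC-/- mice.

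The fitted peaks of the genes called rhythmic in Bmal1IEC-/- mice came at 5.25 ± 0.83 h (SE) for Ces2c, 6.93 ± 1.35 h for Ces2e, 7.25 ± 1.23 h for Ces2a, 9.0 ± 0.81 h for Ces1e and 9.63 ± 0.77 h for Ces2g, beside the 6.92 h of Ces1g. The peak of Ces1f came at 0.49 ± 0.56 h. Amplitudes in Bmal1IEC-/- mice ran from 0.15 for Ces1d to 0.49 ± 0.10 for Ces2g. In control mice Ces1d had the largest amplitude of the 9, followed by Ces2b at 0.32 ± 0.13 and Ces2g at 0.32 ± 0.10. That of Ces2a was 0.14 ± 0.15, and those of Ces1g, Ces2c and Ces2e were 0.08, 0.08 and 0.02.

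**Figure D4:**
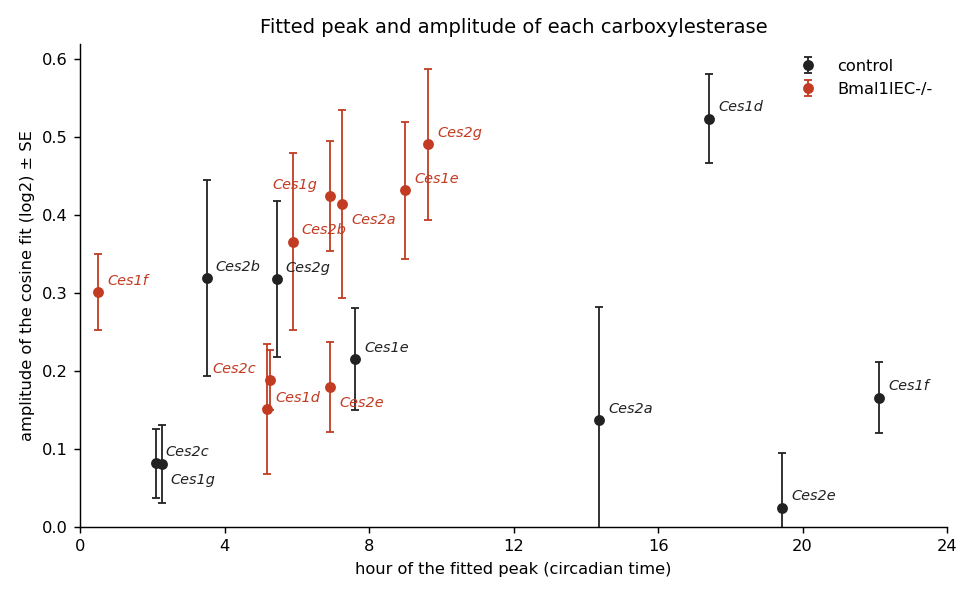
Amplitude of a fitted 24-h cosine (log2, with SE) against the hour of its peak for the 9 genes in control (black) and Bmal1IEC-/- mice (red). Ces1d is alone at 0.52 and 17.4 h in control mice, and 8 of the 9 Bmal1IEC-/- peaks lie between 5 and 10 h, with Ces1f at 0.49 h. Among these 8 are Ces1d and Ces2b, which were not called rhythmic in Bmal1IEC-/- mice (JTK_cycle adjusted p = 0.868 and 0.0798).

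Night (CT13, CT17 and CT21) was also compared with day (CT1, CT5 and CT9) in one edgeR model over all genes. In control mice 3 of 9 genes passed, where 40.0% of all genes did, 20.2% lower and 19.9% higher at night. Ces1d was higher at night, and Ces2b and Ces2g were lower, by -0.41 ± 0.16 (SE, log2; adjusted p = 0.0329) and -0.46 ± 0.15 (adjusted p = 0.0117). With 1 mouse left out at a time, Ces2b kept this call in 38 of 46 cases and Ces2g in all 46. In Bmal1IEC-/- mice 5 of 9 passed and all 5 were lower at night, where 15.9% of all genes passed, 8.21% lower and 7.68% higher. The median difference was -0.27 over the 9 genes and -0.0048 over all genes in Bmal1IEC-/- mice, and -0.09 over the 9 genes in control mice. Beside Ces1g these were Ces2a at -0.57 ± 0.18 (adjusted p = 0.0266), Ces2b at -0.48 ± 0.16 (adjusted p = 0.0293), Ces2c at -0.26 ± 0.06 (adjusted p = 0.00297) and Ces2e at -0.25 ± 0.09 (adjusted p = 0.0452). Without Bmal1IEC-/- mouse SV399 at CT17 only Ces1g and Ces2c passed. The interaction of genotype and period did not pass for these 5 genes, with adjusted p-values of 0.398 to 0.958 and intervals of -1.17 to -0.19 for Ces2a and -0.51 to 0.37 for Ces2b.

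**Figure D5:**
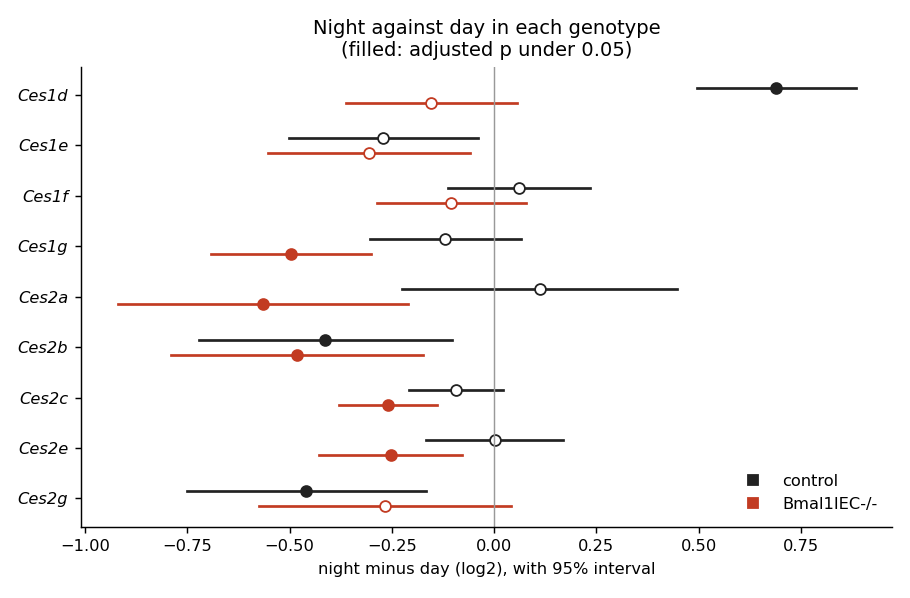
Difference between night and day (log2, with 95% interval) of the 9 genes in control (black) and Bmal1IEC-/- mice (red), with filled points where the adjusted p is under 0.05. Control Ces1d lies at 0.69, apart from every other value, and all 9 Bmal1IEC-/- differences are below 0, 5 of them filled.

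Summed over the 9 genes, the level was 872 RPKM in the median control mouse (range 741 to 1069) and 696 in the median Bmal1IEC-/- mouse (range 535 to 885). In control mice the median sum was 869.9 by day and 892 at night. The corresponding Bmal1IEC-/- medians were 770.0 and 627. Ces1d made up 13.6% of the sum in the median control mouse and 8.17% in the median Bmal1IEC-/- mouse, whereas Ces2e made up 12.9% and 18.7%. Ces2c took about the same share in both, 32.6% and 33.7%.

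The 2 mice left out of the tests stood apart in some of these genes. Against the kept pair at CT1, the mean of SV384 and SV385 was 1.37 times as high for Ces2c and 1.34 times for Ces2e, and both mice were above every other Bmal1IEC-/- mouse in these 2 genes. Their Ces1d and Ces1g counts lay within the range of the other Bmal1IEC-/- mice. With both mice included, Ces2b joined the rhythmic genes of Bmal1IEC-/- mice (adjusted p = 0.0358) and Ces2e left them (adjusted p = 0.0681), and the changed rhythm had adjusted p-values of 1.96e-05 for Ces1d and 0.00811 for Ces1g, where 1.98% of all genes passed.

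Within groups, Ces2a, Ces2b, Ces2c and Ces2e varied together and Ces2g did not vary with them. With the 12 group means removed, the Pearson correlation over 46 mice was 0.81 between Ces2a and Ces2e, 0.77 between Ces2c and Ces2e, 0.75 between Ces2b and Ces2e and 0.74 between Ces2a and Ces2c. For Ces2g the correlations with these 4 genes ran from -0.09 with Ces2a to 0.15 with Ces2e. Those of Ces1f were -0.52 with Ces2a, -0.40 with Ces2e, -0.39 with Ces2b and -0.36 with Ces2c, and 0.12 with Ces2g. These are descriptions: the points share libraries, and some Ces2 genes share sequence. Ces1d did not vary with the Ces2 genes within groups (-0.06 for Ces2b to 0.22 for Ces2e), and its correlation with Ces1g was 0.40.

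The genes whose log2 depth-scaled counts were most like those of Ces1d over the 46 mice were Cyp4b1 (Pearson r = 0.92), a cytochrome P450 that hydroxylates fatty acids, Thbs4 (0.88), Ephx2 (0.86), a soluble epoxide hydrolase, Ugt1a1 (0.84), a glucuronosyltransferase, and Car4 (0.83), a carbonic anhydrase of absorptive colonocytes. Ces1g was at rank 18 with 0.75. These mice share genotype and time, and all 5 genes were lower in Bmal1IEC-/- mice. With the group means removed the 5 most alike were others, Gabarapl1 (0.77), Mylip (0.74), Mettl7a1 (0.73), Rnf130 (0.72) and Ppp2r5c (0.72).

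The 11 other genes with a Ces symbol were close to absent. Ces3b and Ces4a had 0 counts in every mouse, which allows up to 3 counts per library, and no other reached more than 8 counts in any of the 46 mice. None passed the filter. Among 16 other ester and lipid hydrolases 12 were tested for genotype, 2 were lower and 1 higher in Bmal1IEC-/- mice, none by 1.5-fold, beside 5.64% lower and 5.44% higher of all genes. These were Lipe, the hormone-sensitive lipase, at -0.37 ± 0.10 (SE, log2; adjusted p = 0.00896), Lipa, the lysosomal acid lipase, at -0.20 (adjusted p = 0.000274) and the colipase Clps at 0.44 (adjusted p = 0.000592). Abhd6, a monoglyceride hydrolase, was the one of them with a changed rhythm (adjusted p = 0.00265 in edgeR), beside 0.961% of all genes. Genes of this and the following lists that did not reach 1.5-fold are named because their counts were small, after their values were seen. All these lists, with those of cell type markers, were chosen with earlier results of these data known. Their counts and adjusted p-values, for genotype and for a changed rhythm, are therefore a description and test no set of genes.

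Of 16 genes of triglyceride assembly 13 were tested. Beside 5.64% lower and 5.44% higher of all genes, 4 were lower in Bmal1IEC-/- mice and none higher. They were Dgat2, which makes triglycerides from diglycerides, at -0.57 (adjusted p = 7.15e-06), Plin2, which coats lipid droplets, at -0.28 (adjusted p = 0.000112), Lpin2 at -0.21 (adjusted p = 0.00474) and Mogat2 at -0.37 (adjusted p = 0.0307). None of the 13 had a changed rhythm, and the list's median difference was -0.21. Of 14 genes of microsomal drug metabolism 4 were lower and 2 higher, beside the same shares of all genes. Cyp4b1 was lower by 1.97 (log2, SE 0.12, adjusted p = 5.7e-18) and Ugt1a1 by 0.66 (SE 0.06, adjusted p = 7.25e-13), and both also stand among the genes most like Ces1d. Por, the reductase that feeds electrons to cytochromes P450, was at -0.42 (adjusted p = 3.47e-06) and Cyp2c65 at -0.29 (adjusted p = 7.63e-06), while Gstm1 was at 0.21 (adjusted p = 0.000753) and Sult1a1 at 0.19 (adjusted p = 0.00156). Cyp4b1 (adjusted p = 0.00672), Por (adjusted p = 0.0199) and Cyp2c55 (adjusted p = 0.0495) had a changed rhythm, as did 0.961% of all genes.

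Of 19 nuclear receptors and clock output factors 18 were tested. Beside 5.64% lower and 5.44% higher of all genes, 6 were lower and 4 higher in Bmal1IEC-/- mice. The core clock repressors Nr1d2 and Nr1d1 were lower by 1.74 (log2, adjusted p = 2.86e-23) and 1.48 (adjusted p = 2.39e-13), and Dbp, a D-box activator, by 0.88 (adjusted p = 8.25e-06). Nfil3, a D-box repressor, was higher by 1.04 (adjusted p = 6.8e-07). Changed rhythms were found for Nfil3, Tef and Dbp, with adjusted p-values of 3.75e-10, 4.86e-06 and 0.0456, and for 0.961% of all genes.

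The sum of 8 markers of the epithelium was 28263 to 38005 normalized counts (median 32609.7) in control and 31853 to 40102 (median 34588) in Bmal1IEC-/- mice, with 2 genes lower and 4 higher. Of all genes 5.64% were lower and 5.44% higher, which stands beside this and the following marker counts. Of 5 markers of absorptive colonocytes 3 were lower (Slc26a3, Car4 and Guca2a), with median sums of 47076 in control and 43574 in Bmal1IEC-/- mice. Of 8 adipocyte markers 1 was lower (Cidec), and the means of the other 7 were below those of control mice without passing the test. Their sum ran from 107 to 3657 (median 732) in control and from 99.4 to 2331 (median 245) in Bmal1IEC-/- mice. With this sum as a covariate the Ces1d difference between genotypes was -1.27 ± 0.10 (SE, log2) and that of Ces1g -0.76 ± 0.08, the changed rhythms had adjusted p-values of 3.87e-05 and 0.0116, and the Ces1d interaction one of 0.00275. The sum of 5 liver markers ran from 2.13 to 64.3 normalized counts (median 7.37) in control and from 2.06 to 25.03 (median 8.85) in Bmal1IEC-/- mice. None of them passed the filter, and Alb reached 43, Ttr 19, Apoh 5, Fgb 4 and Serpina1a 2 counts in a mouse.

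Goblet cell, smooth muscle, fibroblast, immune, pancreas and small intestine markers overlapped between genotypes in their sums. Of 6 goblet cell markers 2 were lower, Clca1 by 0.62 (log2, adjusted p = 9.82e-06) and Tff3 by 0.18 (adjusted p = 0.00394), and 2 were higher, Spink4 by 0.33 (adjusted p = 1.18e-05) and Fcgbp by 0.19 (adjusted p = 0.0319). Of 6 smooth muscle markers Cnn1 and Myh11 were lower, by 0.23 (adjusted p = 0.0193) and 0.16 (adjusted p = 0.0426), and of 6 fibroblast markers Dcn was lower by 0.22 (adjusted p = 0.00836). No T cell, B cell, macrophage or pancreas marker passed. Of 6 small intestine markers 3 were tested and Sis was lower by 2.89 (log2, adjusted p = 9.11e-23). All 4 proximal colon markers were tested and none differed, with a log2 median of 0.02. Of 4 distal colon markers 3 were among the genes listed and only 1 was tested, Hoxa13. It did not differ (log2 -0.10), with means of 8.94 normalized counts in control and 8.47 in Bmal1IEC-/- mice. The distal end is thus hardly covered. Whether any of these markers has a part in the results for the carboxylesterases was not tested. The adipocyte sum was only entered as a covariate. Its own median was 732 in control and 245 in Bmal1IEC-/- mice, with overlapping ranges, so that fit cannot fully separate it from genotype. The fitted slope per log2 unit of the covariate was -0.03 ± 0.03 (SE) for Ces1d and -0.03 ± 0.03 for Ces1g.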

How the data were processed

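RNA of colon tissue was sequenced from poly(A) libraries (TruSeq Stranded mRNA), 1 per mouse. According to the methods and the submitters' processing notes, the authors checked reads with FastQC 0.11.5, trimmed them with Trimmomatic 0.39, aligned them to mm10 with STAR 2.7.5c, handled them with SAMtools 1.3.1 and counted them per gene with featureCounts 1.4.6 (mapping quality of at least 4, no reads over several features). The strand setting is not given in the sources used here. DESeq2 1.22.0 is also named. The deposited values are raw counts, whole numbers for each mouse with no pooling and no normalization. Gene symbols were matched through GENCODE vM21, and 55141 of 55401 identifiers had one.

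Mice SV384 and SV385 were left out of the main tests, as in the study's tables. Genotype (with circadian time), the change of rhythm (genotype by 24-h cosine and sine, 2 degrees of freedom) and day against night with its interaction were tested in edgeR 4.0.16 (TMM, filterByExpr, quasi-likelihood F test) in R 4.3.3, with Benjamini-Hochberg adjustment over all genes tested. Rhythms were tested with an own version of JTK_cycle (24 h, 12 phases in steps of 2 h, Bonferroni over phases) on counts divided by DESeq2 1.42.0 size factors. Cosines were fitted by least squares to log2 normalized counts (Python 3.11.15, scipy 1.17.1). The scripts were tested on simulated data. Alternatives were DESeq2, glmTreat, other filters, all 48 mice, the times as a factor, another length and leaving out each mouse. For rhythm they also included an edgeR F test of a cosine within each genotype. An adipocyte covariate was added after seeing the data. The 9 genes and all lists were chosen with earlier results of these data known. Genes of the lists were named if past an adjusted p of 0.05 and a fold of 1.5, at most 4 a list, apart from those stated, and those most like Ces1d were the 5 with the highest Pearson correlation of log2 depth-scaled counts. Mice are separate animals, 3144997 to 4785844 counts each, and a count of 0 allows up to 3 counts, which covers counting error only. The values of 1 gene of these lists are not reported here.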

Additional observations from a re-analysis of the deposited data

Results flagged for a closer look

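Of 108 groups of 4 mice, 6 held a mouse far from the other 3 by Dixon's criterion, and chance alone gives about 1 group in 20. The counts here were normalized over all 48 mice. For Ces1d these were Bmal1IEC-/- mouse SV384 at CT1 with 519, above the others at 376 to 399, and control mouse SV420 at CT9 with 692, below the others at 849 to 878. For Ces1g they were Bmal1IEC-/- mouse SV385 at CT1 with 873, above 695 to 724, and SV399 at CT17 with 464, below 585 to 587. Ces2a stood at 1147 in Bmal1IEC-/- mouse SV395 at CT13, above 629 to 705, and Ces2g at 44.8 in SV478 at CT5, above 25.1 to 28.0. SV384 and SV385 are the mice left out of the tests.

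A difference between the genotypes in their time course passed in edgeR for 3 results. The rhythm of Ces1d changed with an adjusted p of 1.62e-05, its difference between night and day changed with an adjusted p of 0.00165, and the rhythm of Ces1g changed with an adjusted p of 0.00978.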

How the results depend on the processing

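Ces1d kept its control rhythm, its changed rhythm and its interaction without any single mouse, and Ces1g its changed rhythm. Over all alternatives to the counts of genes and to the level of Ces2c, 32 of 37 kept the value reported. A count was taken as kept within 1.5 times the value, and the level within its SD over mice. Set against a fold of 1.5 by glmTreat, the count of genes past the thresholds between genotypes was 1 (Ces1d) in place of 2, a description only, since the genes were chosen with this contrast known. With the 6 times as levels, 1 (Ces1d) had a changed rhythm. With Benjamini-Hochberg adjustment 1 (Ces1d) was rhythmic in control mice. With no filter on low counts 3 genes (Ces1g, Ces2a and Ces2c) differed between night and day in Bmal1IEC-/- mice. Per length of the longest transcript the median of Ces2c was 311, further from 267 than that SD.

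Leaving out 1 mouse at a time gave 2 to 6 genes that differed between night and day in Bmal1IEC-/- mice, with 2 without SV399 and 3 without SV410, SV444, SV470 or SV478. It gave 2 to 5 rhythmic genes in control mice, with 5 without SV438 or SV453, and 5 to 8 in Bmal1IEC-/- mice. Ces1e kept its control call in 17 of 24 of these, and in Bmal1IEC-/- mice Ces2a kept its call in 12 of 22 and Ces2e in 8 of 22. Differences near 0 changed sign and passed in no case. The interaction of Ces1e was 0.025 over all 48 mice and ran from -0.11 to 0.028 without 1 mouse, and that of Ces2b from -0.16 to 0.00077. The night difference of Ces2e in control mice was -0.0044 over all 48 mice and ran from -0.033 to 0.051. The cause was not tested. No paired analysis was possible because each mouse has its own number and no number is shared between groups. Depth limits Ces2g most, with 12 to 43 counts per mouse.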
